A study of Homo sapiens with 6 samples.

Results

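The 8 genes described here mark DNA synthesis and mitosis: the replication clamp PCNA, the histone genes H2BC5, H2BC7 and H1-2, and the mitotic regulators CDC25C, NEK2, CDC20 and BIRC5. They were taken by symbol from the deposited expression table, where each has 1 row, and are 8 of 52034 genes and 8 of the 8887 genes that averaged 1 FPKM or more over all libraries (FPKM count fragments per length of transcript and per mapped fragments of a library). All 8 passed that filter on low values. They were chosen by their roles and selected on their FPKM in all 6 libraries and their differences in all 4 comparisons, so these are given as a description. Calls of the fit over all genes are counted for them only beside the share of all genes called, and support nothing about the 8.

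RNA was sequenced from NCI-H460, a human line of large cell lung carcinoma. CPT1, an enzyme of mitochondrial fatty acid import, was targeted for repression in it by CRISPR interference. The 3 groups were sg2 and sg1, which carried different guides against CPT1, and sgNTG, which carried a nontargeting guide. Each group had 2 libraries. Cells of all groups were wild type by their label, received a lentiviral vector with KRAB-dSpCas9, a nuclease-dead Cas9 fused to a repressor domain, and, 48 h after infection, were put under 2 μg/ml puromycin and held there, so the controls share vector, repressor and drug. The labels give neither clones nor the time of harvest. They leave unsaid whether the 2 libraries of a group are separate cultures, and p-values then cover the spread among these libraries alone, perhaps a technical one. Repression of CPT1 itself was not analysed here.

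The deposited FPKM summed to between 251924 and 260750 per library and carry no depth. A rough estimate took the commonest value among genes of 1 short length as the same number of fragments in every library. By it, sgNTG replicate 1, the shallowest library, had 0.853 times the depth of the deepest, sgNTG replicate 2. That value was held by 7 of 77 values above 0 in the former and 10 of 82 in the latter. The 3 listed genes of 5 fixed for the line (KRT18, KRT19 and VIM) summed to between 870 and 930 FPKM in each library, and the 2 listed of 8 fixed for other cell types (CD68 and COL1A2) to between 21.5 and 26.5 FPKM. Nearly all of the latter sum was CD68, since COL1A2 had a mean of 0.00145 FPKM. In bulk RNA of this kind, fewer cells in a phase of the cell cycle and less RNA per cell cannot be told apart.

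In a dividing cell PCNA encircles DNA as a ring and tethers the replicative polymerases, while histone genes of the replication-dependent class supply the proteins that package the new DNA. Transcripts of that class end in a stem-loop in place of a poly(A) tail and are made mainly in S phase, although some of these genes also give polyadenylated transcripts. Genes of mitosis are transcribed later, in G2, and their protein products open mitosis (CDC25C), separate centrosomes (NEK2), start anaphase (CDC20) and steer chromosome attachment (BIRC5).

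Promoters of 7 of the 8 genes were found in RefSeq (GRCh38.p14), and 1 per gene is shown because cell cycle timing is set in part at such sequences. RefSeq listed 2 starts for PCNA, 2 for H2BC5 and 4 for CDC25C, and 1 for each of the others. Where several were listed, the start farthest downstream was taken among those without another start well inside the 150 bases before it. Matches at the other starts of these genes are not given here. Each is given 5′ to 3′ on the strand of the gene and starts 150 bases before the transcript start. It ends at that start, or at the first base that GENCODE 29 places in an exon of the same gene. Capitals mark matches to any of the motifs listed after the sequences.
PCNA: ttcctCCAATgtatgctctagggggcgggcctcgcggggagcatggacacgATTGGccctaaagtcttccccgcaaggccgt
H2BC5: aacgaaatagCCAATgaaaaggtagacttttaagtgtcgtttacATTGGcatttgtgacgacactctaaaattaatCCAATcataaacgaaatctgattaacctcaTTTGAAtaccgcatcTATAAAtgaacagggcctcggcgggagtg
H2BC7: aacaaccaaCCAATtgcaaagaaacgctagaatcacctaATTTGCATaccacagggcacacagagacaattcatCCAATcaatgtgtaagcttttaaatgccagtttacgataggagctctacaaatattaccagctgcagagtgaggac
H1-2: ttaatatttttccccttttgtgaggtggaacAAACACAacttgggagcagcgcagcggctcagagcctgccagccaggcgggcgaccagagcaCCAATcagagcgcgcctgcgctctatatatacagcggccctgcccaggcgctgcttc
CDC25C: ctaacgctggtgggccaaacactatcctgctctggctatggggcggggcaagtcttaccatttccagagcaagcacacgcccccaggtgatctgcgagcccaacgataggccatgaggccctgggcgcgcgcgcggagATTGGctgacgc
NEK2: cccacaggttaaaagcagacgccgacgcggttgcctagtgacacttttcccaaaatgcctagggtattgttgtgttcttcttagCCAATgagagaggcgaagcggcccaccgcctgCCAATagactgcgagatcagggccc
CDC20: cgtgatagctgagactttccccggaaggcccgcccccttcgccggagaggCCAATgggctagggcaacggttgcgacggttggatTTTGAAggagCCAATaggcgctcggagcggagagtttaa

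These stretches lie at chr20:5120027-5120108 on the minus strand (PCNA, 82 bases), chr6:26157972-26158121 on the plus strand (H2BC5), chr6:26199366-26199515 on the plus strand (H2BC7) and chr6:26056471-26056620 on the minus strand (H1-2). The mitotic ones lie at chr5:138331878-138332027 on the minus strand (CDC25C), chr1:211675631-211675771 on the minus strand (NEK2, 141 bases) and chr1:43358831-43358954 on the plus strand (CDC20, 124 bases). The motifs were searched on both strands from 150 bases before to 50 bases after the start. All 7 windows held CCAAT, a pentamer bound by the factor NF-Y, and 26.5% of the 35116 RefSeq promoter windows of this length do. PCNA, H2BC7, CDC20 and NEK2 held it at 2 positions and H2BC5 at 3.

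The other motifs divided the genes. The histone octamer ATTTGCAT, found in 1.13% of all windows, occurred in H2BC7 at -111 to -104 from the start, and in none of the other 6 windows. The H1 box AAACACA, found in 3.58% of windows, occurred in H1-2 at -119 to -113 and in no other of the 7. A TATA box, searched in the spelling TATAAA only (7.65% of windows), was found in H2BC5 at -29 to -24. The stretch of H1-2 holds the run tatatata, which was not searched. The letters TTTGAA, one form of the cell cycle homology region that represses G2 and M genes outside their phase (9.42% of windows), stood in CDC20 at -65 to -60, in H2BC5 at -44 to -39 and in CDC25C at 44 to 49 after the start. PCNA held TGACGT, the core of a cyclic AMP response element (6.30% of windows), at -52 to -47, past the end of the stretch shown. No window of the 7 held TTTNNCGC, one form of the E2F site (4.71% of windows). A match or its lack describes these letters in these windows and says nothing on binding.

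**Figure D1:**
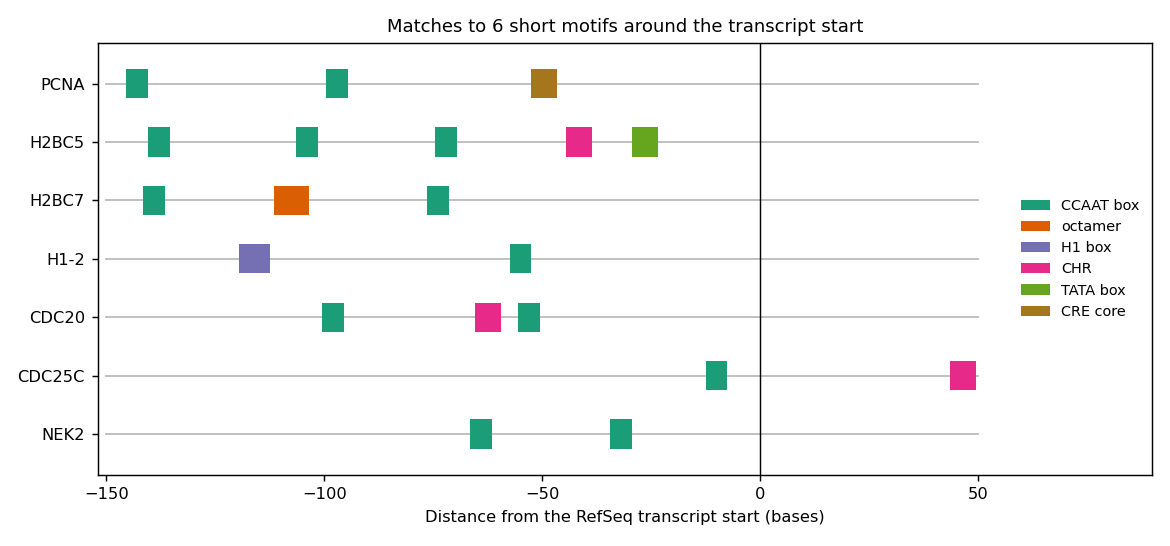
Positions of motif matches in the windows of 7 genes, with the distance from the RefSeq transcript start in bases on the horizontal axis and 1 row per gene; coloured blocks are matches on either strand. CCAAT is in all 7 rows, while the octamer is in H2BC7 and the H1 box in H1-2 alone among these rows.

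Ordered by their mean over the 6 libraries, the genes ran from PCNA (32.8 FPKM) through H1-2 (22.5), BIRC5 (13.7), NEK2 (8.46), H2BC5 (7.66), CDC20 (4.96) and H2BC7 (2.42) to CDC25C (2.36), in FPKM, which are per length. PCNA stood at the 88.0th percentile of level among the genes tested and CDC25C at the 22.6th. The libraries of NEK2 and H2BC5 overlapped in level, and so did those of H2BC7 and CDC25C; the libraries of the other neighbours in this order did not overlap.

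PCNA, at 20:5114953-5126626 on the minus strand (hg38, GENCODE 29), had 29.2 and 28.0 FPKM in the sg2 libraries, 35.3 and 35.7 FPKM in the sg1 libraries, and 33.4 and 35.3 FPKM in the sgNTG libraries. The sg2 libraries were the 2 lowest, and those of sg1 overlapped with those of sgNTG. The sg2 mean was 0.806 times the sg1 mean and 0.833 times the sgNTG mean, and the sg1 mean was 1.03 times the sgNTG mean. On the log2(FPKM + 1) scale, sg2 differed by -0.30 from sg1 and by -0.26 from sgNTG, and sg1 by 0.046 from sgNTG, each with an SE of 0.0485. PCNA varied little within groups: its residual SD was 0.041 in log2, where the median gene of like level had 0.0548. RF00568, a small nucleolar RNA gene, overlaps PCNA on the same strand.

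The 3 histone genes lie within 145 kb of the major histone cluster on chromosome 6. H2BC5, at 6:26158146-26171349 on the plus strand, codes for a histone H2B, and its coding transcripts in GENCODE 29 are 496 and 789 nt long, 1 of them a single exon. It had 6.70 and 6.46 FPKM in sg2, 9.09 and 9.01 FPKM in sg1, and 7.11 and 7.60 FPKM in sgNTG. The groups were fully apart, with sg2 lowest, sg1 highest and sgNTG between them. The sg2 mean was 0.727 times the sg1 mean and 0.895 times the sgNTG mean. The residual SD of 0.0396 in log2 was below the 0.0764 of the median gene of like level. H2BC5 overlaps the antisense gene AL353759.1 and, on its own strand, the pseudogene LARP1P1. The strand setting is not given in the sources used here, so its reads and those of AL353759.1 cannot be told apart. That setting would not separate reads of LARP1P1, which may also be counted with H2BC5.

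H2BC7, at 6:26199520-26200715 on the plus strand, is a single-exon H2B gene of 1196 nt. It had 2.12 and 1.59 FPKM in sg2, 3.54 and 2.66 FPKM in sg1, and 1.99 and 2.63 FPKM in sgNTG. Both sg1 libraries were above the other 4, and those of sg2 and sgNTG overlapped. At this low level the higher library of a group was up to 1.34 times the lower, and the residual SD of 0.202 in log2 exceeded the 0.112 of the median gene of like level. The sg2 mean was 0.598 times the sg1 mean.

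H1-2, at 6:26055787-26056428 on the minus strand, is a single exon of 642 nt that codes for a linker histone, the class that sits on the DNA between nucleosomes. It had 18.8 and 21.8 FPKM in sg2, 26.3 and 27.3 FPKM in sg1, and 20.3 and 20.3 FPKM in sgNTG. Here, too, both sg1 libraries were highest, but the sg2 libraries fell on either side of sgNTG. The difference of sg2 from sgNTG was -0.0041 (SE 0.0729) in log2, and it was 0.097 without sg2 replicate 1 and -0.10 without sg2 replicate 2. The difference of sg1 from sgNTG was 0.38 (SE 0.0729). The direction of H1-2 between sg2 and sgNTG therefore rests on which sg2 library is kept.

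CDC25C, at 5:138285265-138338355 on the minus strand, codes for the phosphatase that activates CDK1 at mitotic entry. Its libraries had 1.92 and 2.57 FPKM in sg2, 2.15 and 2.25 FPKM in sg1, and 2.41 and 2.84 FPKM in sgNTG. The sg1 libraries were below those of sgNTG, whereas the sg2 libraries, 1.34-fold apart, overlapped with both other groups. It was the 1 gene of the 8 that did not separate the guides: the difference of sg2 from sg1 was 0.013 (SE 0.129) in log2, and it was 0.16 without sg2 replicate 1 and -0.13 without sg2 replicate 2. CDC25C overlaps FAM53C on the opposite strand, so reads of both may be counted together.

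NEK2, at 1:211658657-211675630 on the minus strand, codes for a kinase that loosens the link between centrosomes. It had 7.76 and 7.63 FPKM in sg2, 8.15 and 9.60 FPKM in sg1, and 9.07 and 8.54 FPKM in sgNTG. The sg2 libraries were the 2 lowest, and the sg1 libraries lay on either side of sgNTG. The difference of sg1 from sgNTG was 0.0063 (SE 0.085) in log2, with 0.11 without sg1 replicate 1 and -0.10 without sg1 replicate 2. FDPSP8, a pseudogene, lies within the gene on the same strand.

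CDC20, at 1:43358955-43363203 on the plus strand, codes for the activator through which the anaphase-promoting complex (APC/C) marks securin and cyclin B for destruction. It had 3.87 and 4.86 FPKM in sg2, 5.81 and 5.12 FPKM in sg1, and 5.08 and 5.03 FPKM in sgNTG. The groups did not overlap, with sg2 lowest and sg1 highest, as for H2BC5 and 4.13% of all genes tested, but the libraries of sg2 were 1.26-fold apart. Without sg2 replicate 1 the difference of sg2 from sgNTG was -0.046 in log2, and without sg2 replicate 2 it was -0.31, against -0.18 with both. The difference of sg2 from sg1 was -0.14 and -0.41 in these same cases, against -0.27 with both.

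BIRC5, at 17:78214186-78225636 on the plus strand, codes for survivin, the subunit that brings the chromosomal passenger complex to centromeres. It had 13.5 and 11.5 FPKM in sg2, 14.2 and 13.8 FPKM in sg1, and 14.7 and 14.8 FPKM in sgNTG. It was lowest in sg2 and highest in sgNTG with no overlap between any groups. The share of all genes tested with this full order was not counted, while 5.21% had all libraries of both guides below those of sgNTG. The sg2 mean was 0.845 times the sgNTG mean and the sg1 mean 0.947 times it. The differences of sg2 from sg1 ranged between -0.26 and -0.05 in log2 when single libraries of sg2 were left out, against -0.16 with both.

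**Figure D2:**
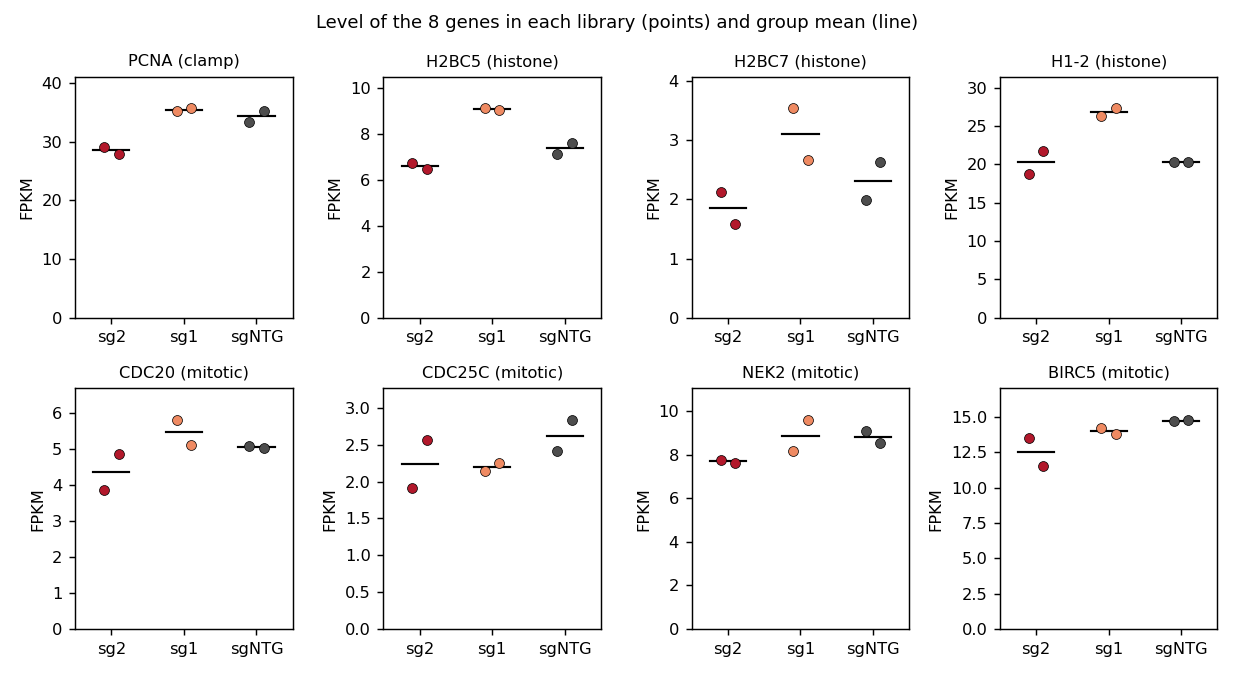
FPKM (vertical axes, from 0) of each of the 8 genes in the 2 libraries of sg2, sg1 and sgNTG (horizontal axis); points are libraries and lines group means. The 3 histone genes were highest in sg1, for example H2BC5 with 9.09 and 9.01 FPKM, while BIRC5 was highest in sgNTG with 14.7 and 14.8 FPKM.

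Between the guides, the sg2 libraries were below the sg1 libraries without overlap in 7 of the 8 genes, all but CDC25C. Over all genes tested, 24.2% were lower without overlap and 24.4% were higher. The median difference of sg2 from sg1 was -0.29 in log2 over the 8 genes and 0.0016 over all genes tested. Of the 8, PCNA and H2BC5 were among the genes lower in sg2 at a limma adjusted p (Benjamini-Hochberg over 8887 genes) under 0.05, as were 0.776% of genes, and none was among the 0.518% that were higher (1.29% in either direction). Because the genes were chosen with these values in view, nothing is read from these counts. Both calls lay close to the threshold: in 15 other settings PCNA was called in 2 and H2BC5 in 3, and neither was called when any 1 library was left out.

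Against the nontargeting guide, sg2 was lower without overlap in 5 of the 8 genes (PCNA, H2BC5, CDC20, NEK2 and BIRC5), beside 18.7% of all genes tested, and higher in 0, beside 22.3%. All 8 differences of sg2 from sgNTG were below 0, with a median of -0.18 in log2. With sg1, 4 of the 8 were higher without overlap than in sgNTG (the 3 histone genes and CDC20), beside 22.2% of all genes, and 2 were lower (CDC25C and BIRC5), beside 18.9%; the median of the 8 was 0.07. With both guides combined, BIRC5 was the 1 gene with all 4 libraries below those of sgNTG, beside 5.21% of all genes, and 0 were higher, beside 7.06%. BIRC5 differed there by -0.15 (SE 0.0678). No gene of the 8 was called by limma in these 3 comparisons, in which 0.0113% (sg1), 0.0225% (sg2) and 0.0113% (both) of genes were. The comparisons share the sgNTG libraries.

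**Figure D3:**
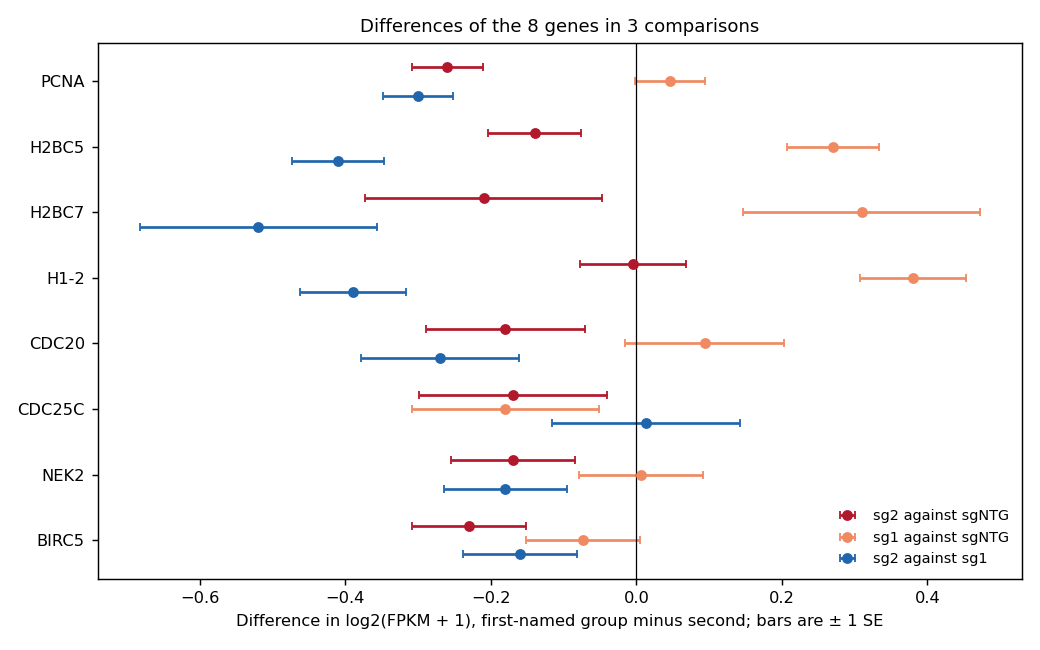
Difference in log2(FPKM + 1) (horizontal axis; bars are ± 1 SE from limma) of the 8 genes for sg2 against sgNTG, sg1 against sgNTG and sg2 against sg1. The 3 histone genes are above 0 with sg1 (0.27 to 0.38) and below 0 between the guides (-0.52 to -0.39), and all 8 points of sg2 against sgNTG are below 0.

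Sums over the genes of a role were taken per library. The 3 histone genes summed to 27.6 and 29.8 FPKM in sg2, 38.9 and 39.0 FPKM in sg1, and 29.4 and 30.5 FPKM in sgNTG. The 4 mitotic genes summed to 27.0 and 26.6 FPKM in sg2, 30.3 and 30.7 FPKM in sg1, and 31.2 and 31.3 FPKM in sgNTG. The histone sum was highest in sg1 and overlapped between sg2 and sgNTG, whereas the mitotic sum was lowest in sg2 and highest in sgNTG. The histone sum divided by the mitotic sum was 1.02 and 1.12 in sg2, 1.28 and 1.27 in sg1, and 0.941 and 0.976 in sgNTG, with no overlap. The sums are ruled by their most abundant genes, H1-2 and BIRC5, and single genes depart from them: CDC20 had the order of H2BC5. Since the genes were chosen on these values, the orders are a description.

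Histone readings depend on which transcripts the capture beads kept. Of 65 replication-dependent histone genes in the list, 57 were in the table used, 43 of these had a mean under 1 FPKM, 23 under 0.1 FPKM, and 8 were listed at 0 in all libraries. RN7SL2, a signal recognition particle RNA with no poly(A) tail, had 7.42 and 9.03 FPKM in sg2, 10.6 and 10.2 FPKM in sg1, and 2.74 and 2.96 FPKM in sgNTG. RN7SL1 had 10.1 and 8.66 FPKM in sg2, 11.7 and 8.07 FPKM in sg1, and 3.04 and 3.71 FPKM in sgNTG. Both were higher with either guide than in sgNTG, an order seen in none of the 3 histone genes. Between the guides, RN7SL2 was lower in sg2 without overlap, as the 3 histone genes were, while RN7SL1 overlapped. RPPH1 and RMRP, also without a tail, were at or below 0.257 FPKM in every library. The part of captured RNA without a tail in the histone values was not tested.

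The other 11 replication-dependent histone genes tested did not all share the order of the 3. In sg2 against sg1, 9 were below 0 and 2 above, with a median of -0.23 in log2. That median leans on the near-identical copies H2AC18 (-0.25) and H2AC19 (-0.23): over the 9 others it was -0.054, with 7 below 0 and 2 above, and -0.01 with a trend on transcript length removed. Against sgNTG, 8 of 11 were below 0 with sg2 (median -0.079) and 8 of 11 above 0 with sg1 (median 0.094, and 0.038 over the 9). None was called by limma in any comparison, and 3 of the 11 had an unadjusted p under 0.05 between the guides, where 17% of all genes tested did. H2AC8, an H2A gene, had the lowest difference: 0.978 and 0.597 FPKM in sg2, 1.62 and 1.28 FPKM in sg1, and 0.858 and 1.62 FPKM in sgNTG, a difference of sg2 from sg1 of -0.46 (limma adjusted p = 0.322). H2BC18, an H2B gene on chromosome 1, went the other way, with 2.05 and 2.85 FPKM in sg2, 1.51 and 1.50 FPKM in sg1, and 1.49 and 1.63 FPKM in sgNTG, a difference of 0.45 (limma adjusted p = 0.181). Between both guides and sgNTG, H2BC18 differed by 0.19 and H2AC15, an H2A gene, by 0.16 (limma adjusted p = 0.838 and 0.898), the 2 largest such differences of the list. The sg2 median against sgNTG was 0.057 without sgNTG replicate 1.

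By position, the median difference of sg2 from sg1 was -0.23 over the 7 tested genes of chromosome 6 other than H2BC5, H2BC7 and H1-2. The 2 tested genes of chromosome 1 went opposite ways, H2BC18 with 0.45 and H2BC21 with -0.026. H2AC18 and H2AC19 had no position here, and their split of reads is uncertain. H2BC12, named here after its values were seen because it is the most abundant of the list, had 23.1 and 24.4 FPKM in sg2, 28.0 and 28.1 FPKM in sg1, and 27.3 and 27.7 FPKM in sgNTG. It was lowest in sg2, and the gap between sg1 and sgNTG was small. The ratio of H2BC5 to H2BC12 was 0.29 and 0.265 in sg2, 0.324 and 0.32 in sg1, and 0.26 and 0.274 in sgNTG.

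**Figure D4:**
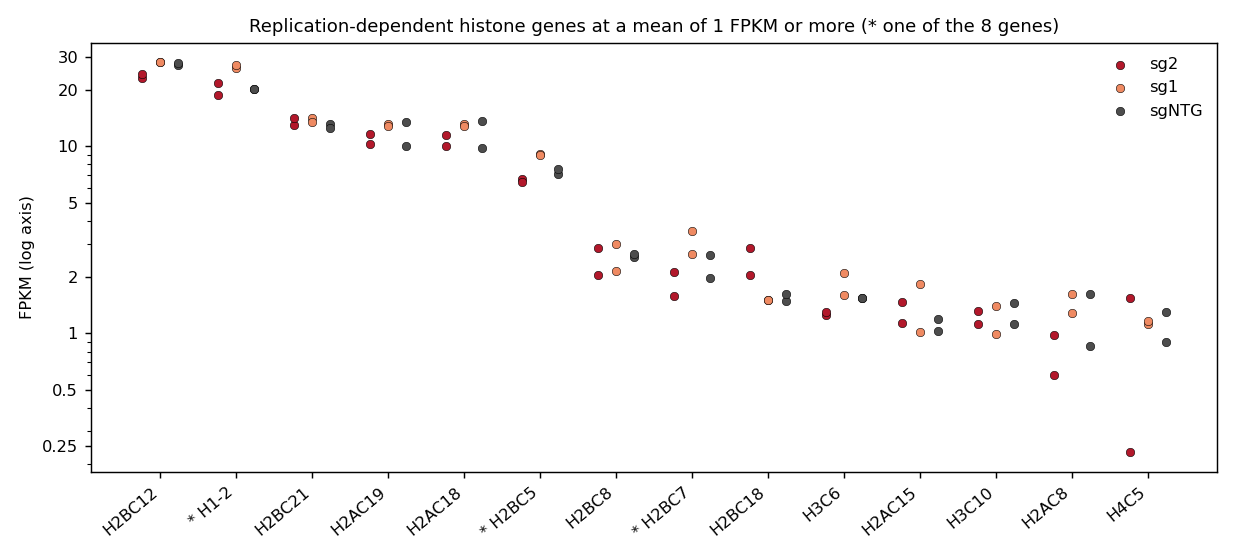
FPKM (log vertical axis) of the 14 replication-dependent histone genes tested, in the libraries of sg2, sg1 and sgNTG (points), ordered by mean level; asterisks mark H1-2, H2BC5 and H2BC7. H2BC18 is highest in sg2 (2.05 and 2.85 FPKM), opposite to the 3 marked genes.

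Of the 5 other tested genes of replication-independent histones, which are made through the whole cycle, 4 were below 0 between the guides, with a median of -0.24. None was called by limma, and 3 had an unadjusted p under 0.05, beside 17% of all genes tested. H2AX, the variant phosphorylated at DNA breaks, whose gene gives transcripts with and without a poly(A) tail, had 5.06 and 5.02 FPKM in sg2, 6.84 and 6.61 FPKM in sg1, and 7.49 and 5.56 FPKM in sgNTG. H3-3A, which codes for H3.3, had 47.5 and 52.6 FPKM in sg2, 60.8 and 58.0 FPKM in sg1, and 55.1 and 50.9 FPKM in sgNTG. Both genes were lower in sg2 than in sg1 without overlap. A list named for histone 3′ end processing, not all of whose genes act at that end, had 5 genes tested (LSM11, NPAT, CPSF2, CSTF2 and UPF1). Of these, 3 were above and 2 below 0 between the guides, with a median of 0.013 and none called by limma (0 at an unadjusted p under 0.05). CSTF2, a 3′ end factor, differed by 0.13 and NPAT, a coactivator of histone genes, by -0.11 (limma adjusted p = 0.368 and 0.571).

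Around PCNA, 16 genes of the clamp loaders and of proteins that bind the clamp were tested. Of these, 12 were below 0 in sg2 against sg1 (median -0.11) and 11 in sg2 against sgNTG (median -0.079). None was called by limma in any comparison. An unadjusted p under 0.05 was had by 2 and 1, beside 17% and 9.61% of all genes tested. RNASEH2A, a subunit of the nuclease that removes ribonucleotides from DNA, had 4.59 and 4.64 FPKM in sg2, 6.81 and 5.75 FPKM in sg1, and 4.96 and 5.24 FPKM in sgNTG, a difference of sg2 from sg1 of -0.37 (limma adjusted p = 0.116). CDT1, a licensing factor degraded on PCNA, had the same difference of -0.37 with wider spread (limma adjusted p = 0.378). RFC3, a clamp loader subunit, had 8.54 and 8.14 FPKM in sg2, 9.01 and 9.71 FPKM in sg1, and 10.4 and 9.24 FPKM in sgNTG. LIG1, the ligase that joins Okazaki fragments, differed by 0.14 between both guides and sgNTG (limma adjusted p = 0.811).

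Among 19 other G1/S genes, 13 were below 0 between the guides (median -0.098) and 14 with sg2 against sgNTG (median -0.11). None was called by limma in any comparison. An unadjusted p under 0.05 was had by 1 and 0, beside 17% and 9.61% of all genes tested. The lists share genes, so their counts are not separate: FEN1, UNG, UHRF1, RFC2, DSCC1 and CHAF1B were also counted around PCNA. Over those at a mean of 5 FPKM or more, the median between the guides was 0.0065. TYMS, thymidylate synthase, had 11.4 and 9.39 FPKM in sg2, 14.8 and 11.6 FPKM in sg1, and 10.5 and 12.8 FPKM in sgNTG, with a narrow gap between the guides and overlap with sgNTG. UHRF1, which keeps DNA methylation through replication, differed by -0.26 between the guides (limma adjusted p = 0.317). CDC45, a part of the replicative helicase, and GMNN, the inhibitor of CDT1, differed by -0.17 and -0.14 between both guides and sgNTG (limma adjusted p = 0.837 and 0.778).

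Of 29 other G2/M genes, 22 were below 0 between the guides (median -0.066) and 22 with sg2 against sgNTG (median -0.092). With both guides against sgNTG, 21 were below 0 (median -0.027). Limma called 0 in these 3 comparisons. An unadjusted p under 0.05 was had by 8, 5 and 2, beside 17%, 9.61% and 6.3% of all genes tested. With sg1 against sgNTG, 16 were above and 13 below 0 (median 0.0079). Of these genes, BUB1, TTK, UBE2C, CKS1B, CKS2, CDCA8 and AURKA are counted again in lists given below. Over all genes tested, 4406 of 8887 were below 0 between the guides and 4234 with sg2 against sgNTG. PIMREG, a mitotic regulator, had 1.87 and 2.19 FPKM in sg2, 3.63 and 3.07 FPKM in sg1, and 1.57 and 3.13 FPKM in sgNTG, the largest difference between the guides in this list at -0.52 (limma adjusted p = 0.301). PSRC1, which binds spindle microtubules, had 2.80 and 2.92 FPKM in sg2, 3.85 and 3.86 FPKM in sg1, and 3.37 and 3.81 FPKM in sgNTG. Its libraries were lowest in sg2 and highest in sg1 with no overlap, and the difference between the guides was -0.33 (limma adjusted p = 0.133).

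Of 18 other genes of the spindle checkpoint and the APC/C, the machinery around CDC20, 13 were below 0 between the guides (median -0.10). Limma called 0 of them, and 5 had an unadjusted p under 0.05, beside 17% of all genes tested. ANAPC16 and ANAPC11, subunits of the APC/C, differed by -0.24 and -0.22 between the guides (limma adjusted p = 0.133 and 0.287). PTTG1, the securin that CDC20 marks for destruction, had 41.5 and 39.0 FPKM in sg2, 47.9 and 45.0 FPKM in sg1, and 48.3 and 50.3 FPKM in sgNTG. It was lowest in sg2 and highest in sgNTG with no overlap, the order of BIRC5. MAD2L1BP, which takes the checkpoint apart, had 4.44 and 4.46 FPKM in sg2, 5.41 and 4.32 FPKM in sg1, and 3.49 and 3.75 FPKM in sgNTG, higher with both guides than in sgNTG by 0.29 (limma adjusted p = 0.714).

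Of 8 other genes of the CDK1 switch, on which CDC25C acts, 7 were below 0 between the guides (median -0.16). Limma called 0 of them, and 2 had an unadjusted p under 0.05, beside 17% of all genes tested. CKS1B, a small partner of cyclin-dependent kinases, had 25.8 and 24.6 FPKM in sg2, 29.9 and 30.2 FPKM in sg1, and 27.8 and 29.9 FPKM in sgNTG, a difference of -0.25 (limma adjusted p = 0.0987). CKS2, its paralogue, differed by -0.19 (limma adjusted p = 0.22). MYBL2 and FOXM1, the transcription factors of late cell cycle genes, differed by -0.099 and -0.073 between both guides and sgNTG (limma adjusted p = 0.86 and 0.918). Of 4 other genes of the chromosomal passenger complex and centrosome kinases, 3 were below 0 between the guides (median -0.12). Limma called 0 of them, and 3 had an unadjusted p under 0.05, beside 17% of all genes tested. NEK6 was above 0 and was among the 3 with such a p. The median was -0.18 without sg2 replicate 1 and -0.057 without sg2 replicate 2. Over the genes at a mean of 5 FPKM or more, AURKA (-0.15) and NEK6 (0.14), the median was -0.0016. CDCA8, the borealin that holds survivin in the complex, had 2.87 and 2.71 FPKM in sg2, 3.29 and 3.89 FPKM in sg1, and 3.67 and 3.44 FPKM in sgNTG. AURKA, a centrosome kinase, had 79.5 and 74.8 FPKM in sg2, 85.6 and 85.2 FPKM in sg1, and 81.0 and 82.8 FPKM in sgNTG.

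Of 12 G1 cyclins, E2F factors and CDK inhibitors, 6 were above and 6 below 0 between the guides (median 0.0095), with 0 called by limma and 2 at an unadjusted p under 0.05. CDKN1A, the inhibitor p21, had 80.5 and 74.3 FPKM in sg2, 68.2 and 68.3 FPKM in sg1, and 79.1 and 73.1 FPKM in sgNTG, lowest in sg1 and overlapping between sg2 and sgNTG. CCNE1, the cyclin of S phase entry, differed by 0.20 between both guides and sgNTG (limma adjusted p = 0.817). CDKN1A and the cyclin gene CCNE2 are also in lists given above. Over the 10 cell cycle lists together, 112 genes other than the 8 were tested, each counted once. Between the guides 79 were below 0 and 33 above (median -0.072), and 24 of 112, or 21.4%, had an unadjusted p under 0.05, beside 17% of all genes tested. Limma called 0 of the 112 in any of the 4 comparisons. With an unadjusted p under 0.05 there were 10 of 112 for sg2 against sgNTG (9.61% of all genes tested), 8 for sg1 against sgNTG (9.92%) and 5 for both guides (6.3%).

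**Figure D5:**
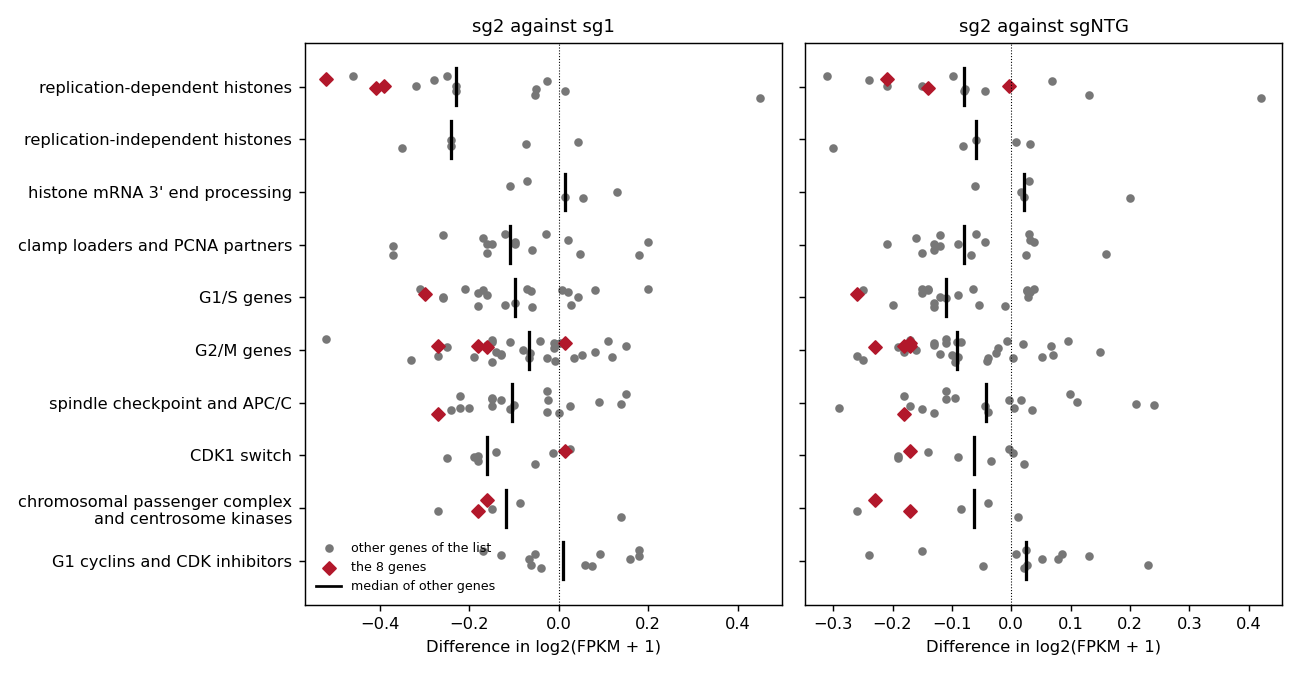
Difference in log2(FPKM + 1) (horizontal axes) of every tested gene in 10 cell cycle lists (rows) for sg2 against sg1 (left) and sg2 against sgNTG (right); grey points are other genes, diamonds the 8 genes where a list holds them, and vertical bars medians of the other genes. The replication-dependent histones run from -0.46 (H2AC8) to 0.45 (H2BC18) between the guides; their median is -0.23, or -0.054 without the near-identical H2AC18 and H2AC19.

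The 3 histone genes have short transcripts, and the difference between the guides moved with length over all genes. Its median was -0.058 in log2 over the 1447 genes under 1000 nt, -0.037 from 1000 to below 2000 nt, -0.013 from 2000 to below 4000 nt, and 0.04 over the 3065 genes of 4000 nt and more. With that trend removed from each library, the differences of sg2 from sg1 were -0.26 for PCNA, -0.35 for H2BC5, -0.47 for H2BC7 and -0.32 for H1-2. For the mitotic genes they were 0.038 for CDC25C, -0.15 for NEK2, -0.24 for CDC20 and -0.14 for BIRC5. The differences of PCNA and H2BC5 moved by more than their replicate spread, against -0.30 and -0.41 before, and H1-2 had -0.39 before. The part of length in the differences was not tested.

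The genes nearest to each profile were sought among all other genes tested, by the root mean square difference of centred log2 values over the 6 libraries. For PCNA the nearest were RPL23A (0.0301), CKS1B (0.0305), HTATSF1P2 (0.0369), OLFML2A (0.0384) and FZD5 (0.0388), where the median gene had 0.165. RPL23A, a ribosomal protein gene, had 187 and 184 FPKM in sg2, 229 and 223 FPKM in sg1, and 219 and 219 FPKM in sgNTG. For the mean of the 3 histone genes they were MRC1 (0.0375), EPHA5 (0.0381), S100A4 (0.0396), TPT1P6 (0.0409) and EPHX1 (0.0448), with a median of 0.212. S100A4, a calcium-binding protein, had 195 and 184 FPKM in sg2, 257 and 264 FPKM in sg1, and 200 and 214 FPKM in sgNTG. For the mean of the 4 mitotic genes they were ACP2 (0.019), DAZAP1 (0.0231), FGF14 (0.0254), CHL1 (0.0255) and ECHS1 (0.0269), with a median of 0.127. One of these 15 genes, CKS1B, is in a cell cycle list.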

How the data were processed

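RNA was extracted with TRIzol and its mRNA caught on beads before sequencing, per the labels' protocols. Reads were processed with STAR and StringTie on hg38, per the submitters' processing notes; for versions, annotation and strand setting the sources used here give nothing. FPKM per gene and library were deposited as 1 table, with 6 columns matched to samples by name. Of its 52807 rows, 51447 had distinct names, and 32 rows that repeated another with values were removed. It lists 65.3% of GENCODE 29 coding genes, so lists are covered in part. All 37 mitochondrial genes are listed at 0, so a listed 0 was not read as absence. FPKM values were not whole reads, counts were not recovered, and depth is unknown.

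Group means of log2(FPKM + 1) were fitted with limma 3.58.1 (R 4.3.3, variance trend, no block) to all 6 libraries and the 8887 genes that averaged 1 FPKM or more; this scale understates changes of low genes. Compared with sgNTG were sg2, sg1 and both guides, and sg2 was compared with sg1. Adjustment of the two-sided p-values was by Benjamini-Hochberg, separately for each comparison, with a threshold of 0.05. The fit was also run on simulated data. Their spread was set by mean level alone, as the variance trend assumes, so that run cannot vouch for the calls given here. Tables were joined with Python 3.11.15 and pandas 2.3.3.

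The 8 genes and the lists were chosen with earlier results of these data known. Named genes were all called genes of a list (up to 6), otherwise the 2 of largest difference between the guides and the 2 of largest difference of both guides from sgNTG; 5 nearest genes were named per profile. Not every gene so chosen is discussed. Alternatives were 2 scalings, a pseudocount of 0.1, a filter at 5 FPKM and none, no variance trend, a replicate block, only the compared libraries, each library left out, and, added after seeing the data, removal of a length trend and, for the histones, of 2 near-identical copies.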

Additional observations from a re-analysis of the deposited data

Results flagged for a closer look

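H2BC5 differed by -0.41 in log2 between sg2 and sg1, and both its sg1 libraries lay above those of sgNTG while both sg2 libraries lay below them. CDC20 had the same arrangement, with a difference of -0.27, which was -0.14 without sg2 replicate 1 and -0.41 without sg2 replicate 2. Of all genes tested, 4.13% had it, and whether the opposite departures from sgNTG differ was not tested separately from the comparison of sg2 with sg1, on values that chose these genes.

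KRT19, a keratin of epithelial cells and 1 of 3 listed genes fixed for the line, was lower in sg2 than in sg1 by -0.30 in log2 (limma adjusted p = 0.0338). It had 143 and 140 FPKM in sg2, 179 and 169 FPKM in sg1, and 155 and 154 FPKM in sgNTG, lower in 2 of 2 sg2 libraries than in either sg1 library. It was called in 3 of 15 other settings. CD68, the 1 tested gene of those fixed for other cell types, differed by -0.044 (limma adjusted p = 0.851).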

How the results depend on the processing

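Of 460 values of the 8 genes under other settings, 431 moved by less than the replicate spread and 29 by more. Of 653 list medians, 65 moved by more than that spread. Several settings, such as no variance trend and a replicate block, cannot move a difference of group means, so both counts overstate stability. The called differences, those of PCNA and H2BC5 between the guides, kept their sign. Not all others did: NEK2 kept its sign in 10 of 15 settings for sg1 against sgNTG. H2BC7 did so in 10 of 13 for both guides against sgNTG. Of 593 values of named genes, only those of KRT19 could lose a call, since no other named gene was called. KRT19 lost its call in 12 of 15 other settings. PCNA was called between the guides under median-of-ratios scaling and with a filter at 5 FPKM, and H2BC5 under these and with a pseudocount of 0.1; H1-2 was called with the filter at 5 FPKM. Over the 9 other replication-dependent histones with a length, the median between the guides was -0.054, and -0.01 with the length trend removed.

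Genes called between the guides numbered 115 (46 higher and 69 lower in sg2). There were 85 under quantile normalization (59 higher, 26 lower), 217 with a filter at 5 FPKM, 26 with only the compared libraries, and 44 with the length trend removed (26 higher, 18 lower). No filter and no variance trend each gave 0 by limma (2646 and 1408 at an unadjusted p under 0.05). Leaving out 1 library gave 4 to 26: 5 and 4 without sg1 replicates 1 and 2, 12 and 6 without sg2 replicates 1 and 2, and 26 without either sgNTG library. With sg2 against sgNTG, 2 genes were called, and 0 under median-of-ratios scaling (881 unadjusted), quantile normalization (844), no filter (1991), no variance trend (773) and only the compared libraries (839), with 0 to 5 when 1 library was left out. For sg1 and for both guides against sgNTG, 1 gene each was called, 0 with no filter (1904 and 1590 unadjusted) or no variance trend (769 and 546). With 1 library left out, the counts ranged over 1 to 6 for sg1 and over 0 to 7 for both guides. The causes of these changes were not tested. Using only the compared libraries leaves the fit of both guides as it is, so it was not run there.

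Replicate numbers did not pair the libraries: deviations of same-numbered libraries correlated at 0.06 (sg1 and sg2), 0.034 (sg1 and sgNTG) and -0.028 (sg2 and sgNTG). With the replicate number as a block, limma called 5 genes between the guides and 0 for sg1, sg2 and both guides against sgNTG (871, 832 and 555 at an unadjusted p under 0.05). FPKM without depth give no counting error, so values near the filter, such as H2BC7 and CDC25C, have a precision known from 2 libraries a group only.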
